A study of Mus musculus with 12 samples.

Results

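The matrix metalloproteinases (MMPs), the ADAMTS proteases (a disintegrin and metalloproteinase with thrombospondin motifs) and the tissue inhibitors of metalloproteinases (TIMPs) were examined in RNA-seq libraries of mouse lens. Members were all protein-coding genes in the count table with an *Mmp*, *Adamts* or *Timp1* to *Timp4* symbol, and the rule used no measured value. It returned 45 of the 55487 genes listed, of which 22 were *Mmp* genes, 19 were *Adamts* genes and 4 were *Timp* genes. The libraries came from whole lenses of C57BL6/J mice at postnatal day 7, with 3 libraries per genotype and 12 in all. Wild-type (WT) lenses were compared with *Trpm3* KO lenses, in which the gene for the cation channel TRPM3 was disrupted by homologous recombination, and with knock-in lenses that carried a CRISPR-made methionine-for-isoleucine substitution in TRPM3 on 1 allele (*Trpm3* I/M) or on both (*Trpm3* M/M). All alleles were in the germline rather than lens-restricted, no treatment was given, and RNA was pooled by design from 4 male and 4 female lenses a library, which the counts of 1 library did not bear out (below). The genotypes are called WT, KO, I/M and M/M below. Nothing in the labels tied the 3 libraries of a genotype to separate litters, so the p-values measure only the spread between these pools.

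MMPs and ADAMTS proteases are zinc-dependent enzymes that cut extracellular matrix proteins, growth factors and each other. TIMPs bind their active sites, with TIMP3 the main inhibitor of ADAMTS enzymes, and TIMP2 also helps membrane-anchored MMP14 to activate MMP2 at the cell surface. The lens is enclosed by a basement membrane capsule and is suspended by fibrillin-rich zonules, and inherited loss of ADAMTS10 or ADAMTS17 in humans is known to displace the lens.

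The libraries held 56162169 to 82090198 counts each. *Trpm3* itself was read at 251 to 285 CPM (counts per 1000000 library counts, scaled by the trimmed mean of M-values, TMM) in WT, 89.9 to 99.7 in KO, 370 to 413 in I/M and 469 to 484 in M/M lenses. The library labelled I/M replicate 3 stood apart, with 5 counts of the female-specific *Xist* against 5487 and 9960 in the other I/M libraries and with the most counts of the Y-linked *Ddx3y* (1887), so it did not look like the mixed pool that was planned. Without it, every count of called members given below for the filters of 5 CPM and of 10 counts was the same, except for 1 count given with its value. The filter of 1 CPM was not rerun without it. The summed level of 10 lens fiber markers was 31000 to 33400 CPM in WT, 26100 to 28000 in I/M and 16000 to 18700 CPM in M/M lenses. The 8 lens epithelium markers summed to 459 to 511 CPM in WT, 400 to 441 in I/M and 339 to 358 in M/M. Of these 8, 2 were above WT without overlap in each knock-in genotype. Summed markers of several neighbouring cell types were higher in M/M lenses. The 10 vascular endothelial markers summed to 13.9 to 16.4 CPM in WT, 25.5 to 32.0 in I/M and 60 to 69.4 in M/M, and 9 of 10 were above WT without overlap in each knock-in genotype. Over all 32253 genes with at least 1 count, 6611 were above WT without overlap in M/M and 3733 in I/M. The 12 pericyte and fibroblast markers summed to 93.6 to 103 CPM in WT, 86.4 to 96.6 in I/M and 145 to 198 in M/M, with *Lum* and *Thy1* at 0 in all WT libraries. Of the 12, 10 were above WT without overlap in M/M and 6 in I/M. *Pdgfra*, the largest of them in WT, went the other way, with means of 79.4, 65.9 and 39.0 CPM in WT, I/M and M/M. The 7 ciliary non-pigmented epithelium markers found in the table summed to 84.8 to 89.6 CPM in WT, 103 to 106 in I/M and 131 to 135 in M/M, and 3 of them were above WT without overlap in M/M and 2 in I/M. Most of this sum was *Wls* (means of 73.3, 97.9 and 124 CPM in WT, I/M and M/M). The means of *Opn3*, *Msx1* and *Col9a1* were lower in M/M than in WT. The 10 macrophage markers summed to 0.436 to 0.668 CPM in WT, 1.07 to 1.19 in I/M and 10 to 21.1 in M/M, and all 10 were above WT in M/M without overlap. Neutrophil markers stayed at or below 0.113 CPM in every library. Fewer cells of a type and less RNA per cell cannot be told apart in whole-lens RNA, and the part of these cell markers in the members' differences below was not tested.

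**Figure D1:**
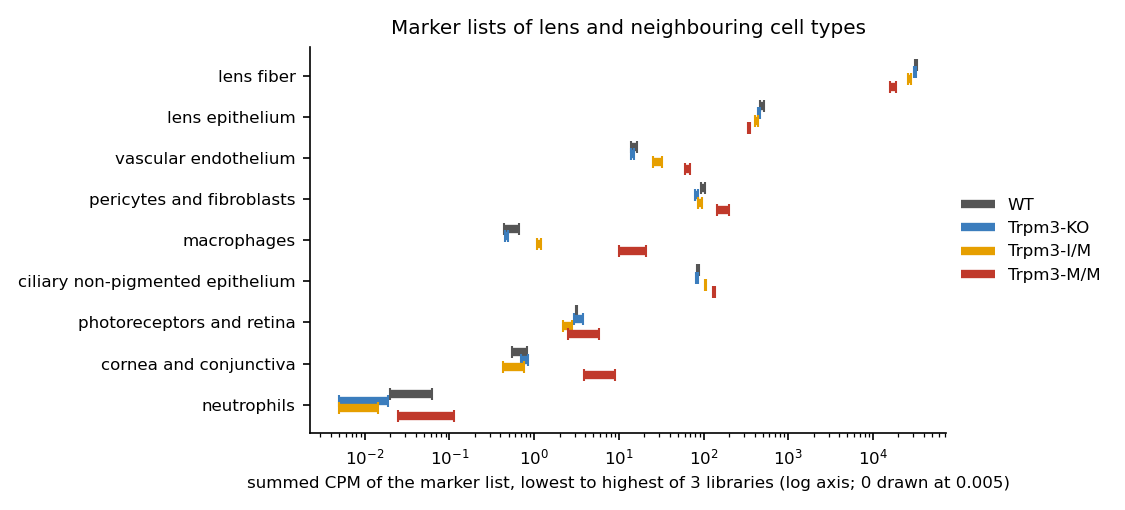
Summed CPM of each marker list (log axis), drawn from the lowest to the highest of the 3 libraries of a genotype. In M/M lenses the lens fiber sum lay at 16000 to 18700 CPM while the endothelial, fibroblast, macrophage and corneal sums lay above all WT libraries. The corneal sum in M/M was mostly *Aldh3a1* (mean 4.32 CPM), and 2 of its 7 genes were above WT without overlap.

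Per kilobase of exon, 3 transcripts dominated the group in WT lenses. *Timp2* had the highest level at 20.6 ± 0.63 CPM per kilobase (SD, n = 3), followed by *Adamts18* at 18.6 ± 0.86 and *Timp3* at 13.5 ± 0.26. *Adamts4* came next at 4.20 ± 1.33, then *Timp4* at 2.82 ± 0.65 and *Mmp14* at 2.00 ± 0.29, and the spreads of *Adamts4* and *Timp4* met. *Mmp15*, *Adamts6*, *Timp1* and *Mmp11* followed between 1.33 and 1.13 in this order, in which each neighbouring pair met within its spread. The gelatinase *Mmp2* was in place 21, at 0.051 ± 0.023. In M/M lenses *Mmp2* stood in place 9 (3.20 ± 0.80), *Timp1* in place 4 (10.1 ± 2.47) and *Adamts17* in place 7 (6.43 ± 0.41), while *Adamts18* was in place 6 (6.52 ± 0.19), level with *Adamts17* and *Timp4* within their spread.

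At the other end, 4 members had no count in any library (*Mmp1b*, *Mmp3*, *Mmp7* and *Mmp20*), where 3 counts would have given 0.0325 to 0.063 CPM depending on the library. These 4 belong to a run of 9 members at chr9:7272514-7699585 (GRCm38), which includes inducible collagenases and stromelysins. Their order is *Mmp13*, *Mmp12*, *Mmp1b*, *Mmp3*, *Mmp10*, *Mmp8*, *Mmp27*, *Mmp20* and *Mmp7*. Only members were placed in this order, so other genes can lie between them. No member of the run reached more than 18 counts in any library. *Mmp12*, the macrophage metalloelastase, had 0 counts in all WT and KO libraries and 4, 18 and 14 counts in the M/M libraries, at least 2.22-fold higher than a floor of 3 counts per WT library. *Mmp13* had 6, 7 and 4 counts in M/M against 1 count in all WT libraries together, and *Mmp10* had 2, 3 and 1 against none.

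Proximal promoters were compared between members with and without 10 counts in 3 libraries. RefSeq promoter windows on GRCm38.p6 matched 31 of the 45 members, and the 250 bases before each start were searched on both strands for an AP-1 site (TGANTCA), a GC box (GGGCGG) and a TATA box (TATAAA). The AP-1 letters were in 6.75% of all 32851 windows, the GC box in 32.7% and the TATA box in 12.4%. Per gene, with any window of a gene counted, these shares were 7.82%, 35.4% and 14.3% of 27025 genes. Of the 17 matched members with at least 10 counts in 3 or more libraries, 0 held the AP-1 letters, 13 a GC box and 1 a TATA box, and nothing is read from 0 of 17 for letters this rare. Of the 14 matched members below that level, 7 held the AP-1 letters, 3 a GC box and 7 a TATA box. All 7 members with the AP-1 letters lay in the chromosome 9 run (*Mmp1b*, *Mmp3*, *Mmp7*, *Mmp10*, *Mmp12*, *Mmp13* and *Mmp20*), whose genes are neighbouring paralogs and so are not independent cases. The windows below are shown for 2 members of that run and for 4 members whose levels are described further on, 5′ to 3′ on the gene's strand, with the searched motifs in capitals (CCGCCC is the GC box on the other strand). Starts are those of RefSeq and can differ by some bases from those of the annotation used for the gene positions. A match describes letters only, and not a bound site. *Mmp3* (+ strand) and *Mmp13* (+ strand) each carry the AP-1 letters followed by the TATA box. *Mmp14* (+ strand) has 2 adjoining GC boxes near its start, *Timp1* (+ strand) and *Adamts18* (− strand) have 1 GC box each, and *Adamts17* (+ strand) has none of the 3 motifs.
*Mmp3*, chr9:7445572-7445821: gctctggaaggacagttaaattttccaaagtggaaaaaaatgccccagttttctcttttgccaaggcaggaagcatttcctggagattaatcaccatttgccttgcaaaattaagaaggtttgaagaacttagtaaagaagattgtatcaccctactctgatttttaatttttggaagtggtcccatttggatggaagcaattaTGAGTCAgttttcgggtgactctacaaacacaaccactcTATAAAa
*Mmp13*, chr9:7272264-7272513: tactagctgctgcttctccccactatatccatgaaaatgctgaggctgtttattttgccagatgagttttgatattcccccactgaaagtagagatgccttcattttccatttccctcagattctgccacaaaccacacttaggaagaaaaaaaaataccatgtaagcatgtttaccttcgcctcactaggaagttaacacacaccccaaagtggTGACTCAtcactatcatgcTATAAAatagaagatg
*Mmp14*, chr14:54431348-54431597: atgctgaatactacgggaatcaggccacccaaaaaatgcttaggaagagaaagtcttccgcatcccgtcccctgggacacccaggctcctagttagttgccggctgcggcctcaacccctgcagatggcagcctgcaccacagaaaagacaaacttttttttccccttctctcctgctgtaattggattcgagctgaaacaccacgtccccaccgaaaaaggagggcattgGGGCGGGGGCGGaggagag
*Timp1*, chrX:20869916-20870165: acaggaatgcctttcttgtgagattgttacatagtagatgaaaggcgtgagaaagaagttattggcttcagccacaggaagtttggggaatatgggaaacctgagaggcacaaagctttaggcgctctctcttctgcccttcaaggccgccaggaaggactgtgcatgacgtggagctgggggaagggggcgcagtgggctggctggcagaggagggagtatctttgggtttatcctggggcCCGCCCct
*Adamts18*, chr8:113848840-113849089: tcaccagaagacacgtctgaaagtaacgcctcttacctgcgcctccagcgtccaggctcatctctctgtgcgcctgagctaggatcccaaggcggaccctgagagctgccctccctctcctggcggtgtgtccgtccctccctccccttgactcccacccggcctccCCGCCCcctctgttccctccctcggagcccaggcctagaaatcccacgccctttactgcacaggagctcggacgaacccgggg
*Adamts17*, chr7:66839485-66839734: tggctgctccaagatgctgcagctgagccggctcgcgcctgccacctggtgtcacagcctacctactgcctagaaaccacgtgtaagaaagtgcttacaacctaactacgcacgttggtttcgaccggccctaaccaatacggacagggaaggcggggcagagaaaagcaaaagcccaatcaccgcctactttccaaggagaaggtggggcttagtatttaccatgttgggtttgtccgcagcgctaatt

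Differential expression was called at a fold change of at least 2 and a false discovery rate (FDR) of at most 0.05, with edgeR's quasi-likelihood test and Benjamini-Hochberg adjustment over all genes tested. Of the 45 members, 14 passed the filter of 5 CPM in at least 3 libraries. In M/M against WT lenses 7 of the 14 were upregulated (6.42% of all 8984 genes tested) and 1 was downregulated (2.53% of all genes). In I/M against WT lenses 4 were upregulated (2.58% of all genes) and 0 downregulated by edgeR or DESeq2 (0.746%), although 2 were lower at an unadjusted p below 0.05. In KO against WT lenses 0 were upregulated (0.234%) and 0 downregulated (0.334%), by edgeR and by DESeq2, and 2 were lower at an unadjusted p below 0.05. Against I/M lenses, M/M lenses had 4 upregulated members (3.67%) and 1 downregulated (1.02%), and against KO lenses they had 8 upregulated (6.85%) and 1 downregulated (2.94%). *Mmp2*, *Mmp16* and *Timp1* passed the filter through the M/M libraries alone and *Adamts17* through both knock-in genotypes, so that a difference was in part built into these 4. The median log2 fold change of the 14 members was 0.97 in M/M (9 of 14 above 0), 0.42 in I/M (10 of 14) and −0.04 in KO (6 of 14), where the medians of all genes tested lay between −0.004 and 0. With scaling by library size alone the median of all genes itself moved to 0.504 in M/M and 0.2 in I/M, and fold changes here are relative to the TMM scale.

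Lower filters took in more members. At 1 CPM in at least 3 libraries 22 members were tested, of which 13 were upregulated in M/M against WT (9.69% of 12638 genes) and 1 downregulated (3.24%). In I/M against WT 5 were upregulated (4.0%) and 0 downregulated (1.25%), with 3 lower at an unadjusted p below 0.05. In KO 0 were called in either direction (0.815%), with 3 lower at an unadjusted p below 0.05. M/M against I/M gave 10 upregulated members (6.5%) and 1 downregulated (1.49%). At 10 counts in at least 3 libraries 30 members were tested, of which 20 were upregulated in M/M against WT (12.4% of 16789 genes) and 2 downregulated (4.58%). The same filter gave 6 upregulated members (4.38%) and 1 downregulated (1.84%) in I/M, 0 called in KO (1.02%, with 5 lower at an unadjusted p below 0.05), and 15 upregulated (9.02%) and 1 downregulated (2.21%) in M/M against I/M. Without I/M replicate 3 the 15 became 16, with *Adamts12* added. Among the members that these lower filters added, *Mmp9*, *Adamts2*, *Adamts7*, *Adamts8*, *Adamts9*, *Adamts14* and *Adamts16* passed through M/M libraries alone. *Mmp19*, *Mmp28* and *Adamts15* passed through M/M and I/M libraries, without any WT or KO library. Over the 41 members with any count, the M/M libraries lay above all WT libraries for 27 (20.5% of 32253 genes) and below them for 6 (15.2%). The comparisons share libraries with each other, so they are given side by side and not as repeats.

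**Figure D2:**
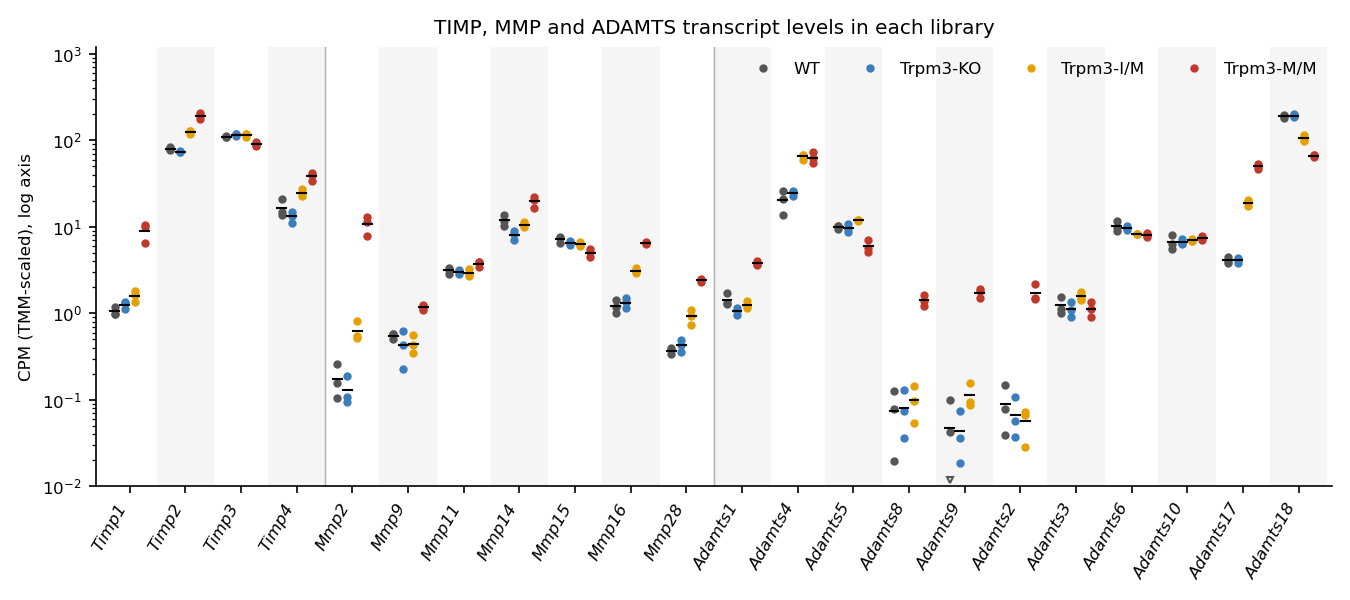
TMM-scaled CPM (log axis) of the 22 members with at least 1 CPM in 3 or more libraries. Points are single libraries, black bars are genotype means (n = 3) and the open triangle marks a library with 0 counts. *Mmp2*, *Adamts8*, *Adamts9* and *Adamts2* lie below 1 CPM in all WT libraries and above 1 CPM in all M/M libraries.

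Of the 4 TIMP genes 3 were upregulated in M/M lenses, and *Timp3* was not. *Timp2* (chr11:118301069-118355740), the inhibitor that partners MMP14, was read at 78.0, 80.4 and 82.9 CPM in WT, 75.6, 72.6 and 73.7 in KO, 127, 127 and 118 in I/M, and 175, 206 and 197 in M/M lenses. The 2 knock-in genotypes lay above WT and apart from each other without overlap. The log2 fold change against WT was 1.26 ± 0.06 (SE; adjusted p = 8.59e-10) in M/M and 0.62 ± 0.06 (adjusted p = 2.96e-06, below the 2-fold threshold) in I/M, and M/M exceeded I/M by 0.64 ± 0.06 (adjusted p = 1.33e-06).

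*Timp1* (chrX:20870166-20874735), an inhibitor of most secreted MMPs whose gene lies within *Syn1*, was read at 1.18, 0.988 and 0.991 CPM in WT and 1.35, 1.30 and 1.13 in KO lenses. It was read at 1.82, 1.63 and 1.37 CPM in I/M and at 6.43, 10.5 and 9.95 in M/M lenses. Most of the difference was thus between I/M and M/M. It was upregulated by 3.09 ± 0.19 on the log2 scale in M/M (adjusted p = 1.67e-08), was 0.61 ± 0.22 higher in I/M (adjusted p = 0.0471), and differed by 2.48 ± 0.17 between these genotypes (adjusted p = 1.35e-07). The I/M difference of *Timp1* from WT was not past the FDR threshold with the replicate block (adjusted p = 0.0637), with upper quartile scaling (0.0532) or without any 1 of the WT or KO libraries or I/M replicate 1 or 2 (0.058 to 0.138).

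*Timp4* was read at 13.8 to 21.0 CPM in WT, 11.1 to 15.0 in KO, 22.8 to 27.1 in I/M and 33.6 to 42.4 in M/M lenses. Its log2 fold change was 1.21 ± 0.14 in M/M (adjusted p = 7.13e-06) and 0.58 ± 0.14 in I/M (adjusted p = 0.00817, below 2-fold). *Timp3*, which stays bound to the matrix and inhibits ADAMTS enzymes, was read at 108 to 112 CPM in WT and 85.8 to 96.1 in M/M lenses, a log2 difference of −0.27 ± 0.05 (adjusted p = 0.000493, below 2-fold). With scaling by library size alone this difference turned to 0.24. Exons of *Timp3* and *Timp4* share 1733 and 90 bases with *Syn3* and *Syn2* on the opposite strand, and their counts were fractional in 12 and 11 libraries, so their levels are uncertain by what those genes contributed.

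The gelatinases degrade denatured collagen and basement membrane type IV collagen. *Mmp2* (chr8:92827291-92853420) had 8, 5 and 13 counts in WT, 10, 6 and 5 in KO, 61, 43 and 38 in I/M and 626, 1207 and 1015 in M/M lenses. As CPM these were 0.105 to 0.258, 0.0939 to 0.187, 0.523 to 0.822 and 7.83 to 13.1, so that each knock-in genotype lay above WT and M/M above I/M without overlap. The log2 fold change was 5.94 ± 0.30 in M/M (61.3-fold, adjusted p = 1.71e-09), 1.84 ± 0.41 in I/M (3.58-fold, adjusted p = 0.00405) and 4.10 ± 0.23 between them (adjusted p = 1.77e-08). *Mmp9*, the other gelatinase, was read at 0.504 to 0.575 CPM in WT and 1.10 to 1.25 in M/M lenses. It rose by 1.06 ± 0.26 in M/M (adjusted p = 0.00255), close to the 2-fold threshold, which it no longer passed without WT replicate 2 (1.00 in the fit at 10 counts), and was −0.29 ± 0.29 different in I/M (adjusted p = 0.484).

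The membrane-type MMPs went different ways. *Mmp16*, which like MMP14 can activate MMP2, was read at 1.42, 1.20 and 1.01 CPM in WT, 1.51, 1.14 and 1.35 in KO, 2.94, 3.31 and 3.10 in I/M and 6.55, 6.32 and 6.75 in M/M lenses. The 3 levels were separated without overlap, with log2 fold changes of 2.43 ± 0.12 in M/M (adjusted p = 2.12e-09), 1.37 ± 0.13 in I/M (adjusted p = 3.64e-06) and 1.07 ± 0.11 between them (adjusted p = 3.23e-06). Without I/M replicate 1 that last difference was 0.99 in the fit at 10 counts, just short of 2-fold.

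*Mmp14* (chr14:54431612-54445364) was read at 11.8, 10.3 and 13.7 CPM in WT, 8.37, 7.0 and 9.05 in KO, 11.2, 10.8 and 9.83 in I/M and 16.4, 22.2 and 20.5 in M/M lenses. The M/M libraries were above and the KO libraries below all WT libraries. Neither difference reached 2-fold (0.72 ± 0.12, adjusted p = 0.000194, and −0.55 ± 0.13, adjusted p = 0.0332), whereas M/M against KO did (1.28 ± 0.13, adjusted p = 1.37e-06). The KO difference was not past the FDR threshold with the replicate block (adjusted p = 0.051), with scaling by library size alone (0.0767) or without WT replicate 1 or 3 or KO replicate 1 or 2 (0.0688 to 0.149). With scaling by library size alone *Mmp14* passed both thresholds in M/M against WT as well (1.23, adjusted p = 1.28e-06). M/M exceeded I/M by 0.89 ± 0.12 (adjusted p = 4.99e-05), and by 1.03 without M/M replicate 1.

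*Mmp15* was read at 6.58 to 7.63 CPM in WT and 4.47 to 5.48 in M/M lenses (−0.53 ± 0.09, adjusted p = 0.000186, below 2-fold, and 0.849 with scaling by library size alone). *Mmp17* had 6 to 12 counts in WT libraries and 57 to 64 in M/M libraries and was upregulated by 1.91 ± 0.27 (adjusted p = 3.37e-05), against 0.13 ± 0.31 in I/M (adjusted p = 0.825). *Mmp24* and *Mmp25* had at most 6 and 7 counts in any library.

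Among the remaining MMPs, *Mmp28* (epilysin) was graded across genotypes. It was read at 0.337 to 0.393 CPM in WT, 0.362 to 0.486 in KO, 0.742 to 1.10 in I/M and 2.30 to 2.51 in M/M lenses. It rose by 1.31 ± 0.20 in I/M (adjusted p = 0.000199) and by 2.68 ± 0.18 in M/M lenses (adjusted p = 2.45e-08), with 1.37 ± 0.15 between them (adjusted p = 5.56e-06). *Mmp19* rose in both knock-in genotypes too, from 4 to 7 counts in WT libraries to 22 or 23 in I/M and 49 or 50 in M/M (1.45 ± 0.31, adjusted p = 0.0033, and 2.35 ± 0.29, adjusted p = 7.74e-06). *Mmp19* and *Mmp28* share 1001 and 466 exon bases with genes on the opposite strand, whose reads cannot be told apart without strand. *Mmp23* had 6 to 10 counts in WT and 29 to 43 in M/M libraries (1.10 ± 0.33, adjusted p = 0.0105), and without WT replicate 2 or M/M replicate 2 its log2 fold change dropped to 0.93 and 0.96. *Mmp11* (stromelysin-3) was read at 2.88 to 3.37 CPM in WT and 3.41 to 3.92 in M/M lenses (0.23 ± 0.11, adjusted p = 0.0762).

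**Figure D3:**
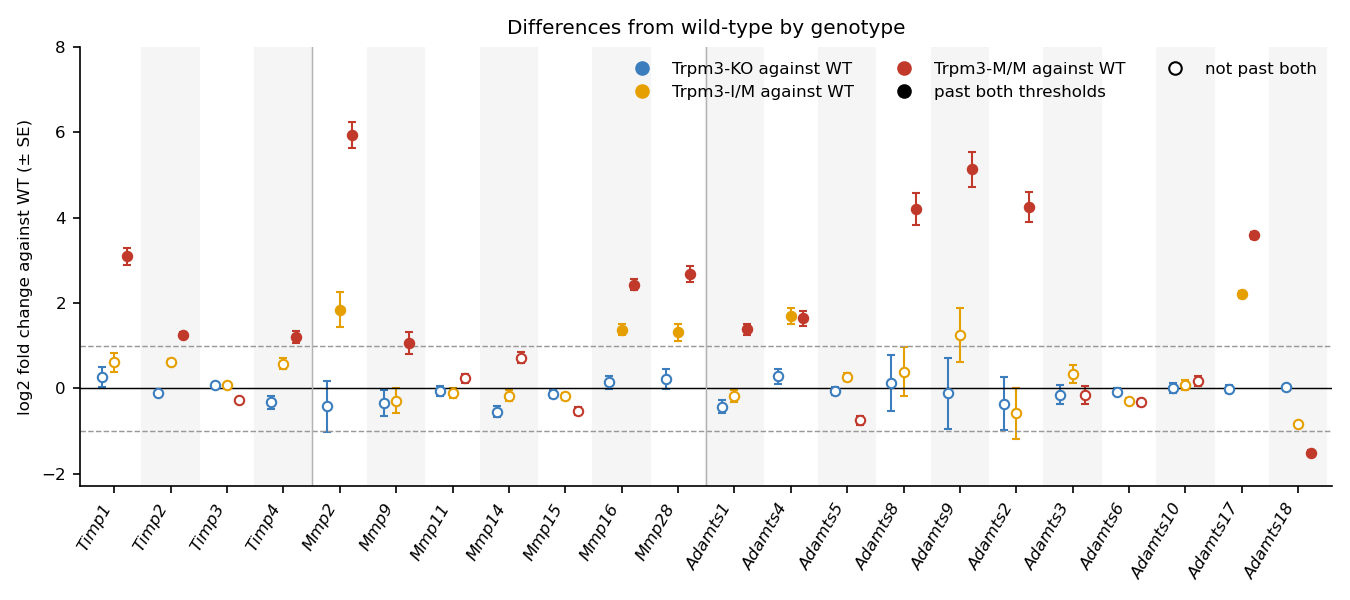
Log2 fold change against WT (points) with its standard error (bars) for the 22 members with at least 1 CPM in 3 or more libraries, in KO, I/M and M/M lenses. Filled points passed the FDR and the 2-fold threshold (dashed lines at 1 and −1). No KO point is filled, and the filled I/M and M/M points of *Adamts4* lie at 1.69 and 1.64.

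The ADAMTS enzymes that act with fibrillin microfibrils did not move together. *Adamts17* (chr7:66839735-67153171) was read at 4.52, 3.87 and 4.06 CPM in WT and 4.41, 4.16 and 3.81 in KO lenses. It was read at 19.3, 17.6 and 20.4 CPM in I/M and at 49.7, 46.9 and 53.3 in M/M lenses. The 3 levels did not overlap. It was upregulated by 2.2 ± 0.08 in I/M (4.59-fold, adjusted p = 6.13e-10) and by 3.59 ± 0.08 in M/M lenses (12-fold, adjusted p = 3.93e-12), and differed by 1.39 ± 0.07 between them (adjusted p = 5.68e-09). *Adamts10*, of the same fibrillin-associated group, was read at 5.49 to 8.06 CPM in WT and 7.14 to 7.80 in M/M lenses (0.17 ± 0.11, adjusted p = 0.179). *Adamts6* was read at 9.01 to 11.6 CPM in WT, 8.22 to 8.36 in I/M and 7.73 to 8.51 in M/M lenses. These small differences (−0.30 ± 0.08, adjusted p = 0.0122, and −0.33 ± 0.08, adjusted p = 0.00304) were below 2-fold. With scaling by library size alone the latter turned to 0.18, and neither was past the FDR threshold (adjusted p = 0.381 and 0.107).

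*Adamts18* (chr8:113697126-113848738), whose loss is known to disturb eye development, went the opposite way from *Adamts17*. It was read at 191, 180 and 197 CPM in WT and 187, 201 and 190 in KO lenses, and at 98.3, 105 and 115 in I/M and 67.8, 64.1 and 67.0 in M/M lenses. The log2 fold change was −1.51 ± 0.06 in M/M (adjusted p = 1.89e-10) and −0.84 ± 0.06 in I/M (adjusted p = 2.27e-07, below 2-fold). The difference of −0.68 ± 0.06 between M/M and I/M was past the FDR threshold too (adjusted p = 9.66e-07).

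The proteoglycanases cleave aggrecan, versican and related proteoglycans, and their members split. *Adamts4* (chr1:171250421-171260637), aggrecanase-1, was read at 20.8, 26.2 and 13.5 CPM in WT, 25.3, 22.6 and 25.7 in KO, 68.5, 67.1 and 59.9 in I/M and 54.0, 72.5 and 61.7 in M/M lenses. Both knock-in genotypes lay above WT, and they overlapped each other. *Adamts4* rose by 1.69 ± 0.18 in I/M (adjusted p = 8.47e-06) and by 1.64 ± 0.18 in M/M (adjusted p = 2.89e-06). The difference of M/M from I/M was −0.05 ± 0.17 (adjusted p = 0.807), and turned to 0.26 with scaling by library size alone.

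*Adamts5*, aggrecanase-2, was read at 10.3, 10.2 and 9.52 CPM in WT, 12.1, 12.1 and 11.7 in I/M and 7.01, 5.67 and 5.16 in M/M lenses. It was −0.75 ± 0.10 different from WT in M/M (adjusted p = 2.96e-05, below 2-fold) and 0.26 ± 0.10 in I/M (adjusted p = 0.068). M/M against I/M was just past 2-fold (−1.01 ± 0.10, adjusted p = 3.23e-06), and this call was lost without M/M replicate 2 (−0.96) or replicate 3 (−0.90) and with scaling by library size alone (−0.70). *Adamts1* lies 53.1 kb from *Adamts5* on chromosome 16 and went the other way. It was read at 1.28 to 1.71 CPM in WT, 1.15 to 1.40 in I/M and 3.59 to 4.00 in M/M lenses, and rose by 1.38 ± 0.13 in M/M (adjusted p = 7.17e-07).

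*Adamts8*, *Adamts9* and *Adamts15* were near the floor of reading in every genotype but M/M. *Adamts9* had 0, 2 and 5 counts in WT, 7, 13 and 6 in I/M and 146, 175 and 132 in M/M libraries, and was upregulated in M/M by 5.13 ± 0.41 (adjusted p = 1.3e-07). It was not called in I/M (1.25 ± 0.64, adjusted p = 0.167) but was in the fit at 10 counts without WT replicate 3 (adjusted p = 0.0479), when WT held 2 counts in all. *Adamts8* had 4, 6 and 1 counts in WT, 4, 8 and 10 in I/M and 97, 150 and 124 in M/M libraries, and was upregulated in M/M by 4.20 ± 0.38 (adjusted p = 4.29e-07). Its neighbour 20.1 kb away, *Adamts15*, had 7 counts in all WT libraries and 142 in all M/M libraries, a CPM ratio of 11.6 (95% exact interval 5.48 to 29.3, counting error only; adjusted p = 6.92e-05). M/M exceeded I/M for *Adamts1* (1.56 ± 0.13), *Adamts8* (3.81 ± 0.33), *Adamts9* (3.88 ± 0.32) and *Adamts15* (2.82 ± 0.45), with adjusted p of 3.93e-07, 6.52e-07, 4.13e-07 and 0.000153. Both *Adamts8* and *Adamts9* passed the filter through M/M libraries alone and share 489 and 1805 exon bases with genes on the opposite strand.

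The procollagen N-propeptidases, which trim fibrillar collagens for assembly, also split. *Adamts2* had 2, 7 and 4 counts in WT, 5, 6 and 2 in I/M and 119, 199 and 130 in M/M libraries, and rose by 4.24 ± 0.35 in M/M (adjusted p = 1.67e-07). *Adamts14* had 2 counts in all WT libraries and 87 in all M/M libraries (ratio 24.8, 95% exact interval 6.67 to 208, adjusted p = 0.000537). *Adamts3*, which also processes VEGF-C, was read at 1.02 to 1.57 CPM in WT and 0.90 to 1.35 in M/M lenses and overlapped between them (−0.16 ± 0.21, adjusted p = 0.529).

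*Adamts7* and *Adamts12*, which both cleave cartilage oligomeric matrix protein, differed in direction. *Adamts12* had 54, 42 and 51 counts in WT, 53, 62 and 46 in KO, 6, 16 and 13 in I/M and 25, 22 and 30 in M/M libraries. It was downregulated in both knock-in genotypes (−2.66 ± 0.28, adjusted p = 6.73e-06, in I/M and −1.76 ± 0.25, adjusted p = 3.14e-05, in M/M), and the I/M libraries were the lowest. The difference of 0.89 ± 0.30 from I/M to M/M (adjusted p = 0.0272) was below 2-fold, and passed it without I/M replicate 2 (1.11), I/M replicate 3 (1.04, adjusted p = 0.0316) or M/M replicate 2 (1.04). It was not past the FDR threshold without I/M replicate 1 or M/M replicate 1 or 3 (adjusted p = 0.0593 to 0.116). *Adamts7* had 2 counts in all WT libraries, 0 in KO and 122 in M/M (ratio to WT 34.8, 95% exact interval 9.44 to 291, adjusted p = 6.52e-05). *Adamts16* had 3 counts in WT, 20 in I/M and 133 in M/M libraries (ratio of M/M to WT 25.3, interval 8.48 to 124, adjusted p = 3.37e-05). All 3 WT counts were in replicate 3. *Adamts16* was not called in I/M against WT (2.04 ± 0.83, adjusted p = 0.0961). It was called with scaling by library size alone (2.21, adjusted p = 0.0451). It was also called without WT replicate 3 (adjusted p = 0.0131), when no WT count remained. *Adamts13*, *Adamts19* and *Adamts20* had at most 5, 2 and 15 counts in any library, and *Mmp8*, *Mmp21* and *Mmp27* at most 1, 5 and 2.

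Summed per kilobase within a class, the members changed in make-up more than in amount for ADAMTS, and in both for MMP and TIMP. *Adamts18* made up 65.2 to 73.7% of the ADAMTS sum in WT libraries, 32.1 to 37.7% in I/M and 19.8 to 23.3% in M/M. *Adamts4* made up 10.7 to 20.1%, 41.5 to 47.4% and 39.3 to 47.4%, and *Adamts17* 1.84 to 2.11%, 7.54 to 8.75% and 19.0 to 22.4%. The ADAMTS sum itself was 26.3 to 27.7 CPM per kilobase in WT, 30 to 30.1 in I/M and 28.6 to 31.8 in M/M lenses. *Mmp2* went from 0.691 to 1.39% of the MMP sum in WT to 24.4 to 31.8% in M/M libraries, where the MMP sum was 2.18-fold that of WT. *Timp3* went from 33.9 to 36.4% of the TIMP sum to 13.5 to 16.7%, and *Timp1* from 2.85 to 3.55% to 10.2 to 14.4%, while the TIMP sum was 1.36-fold in I/M and 2.03-fold in M/M lenses that of WT. These shares do not depend on the scaling between libraries, whereas the sums do.

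**Figure D4:**
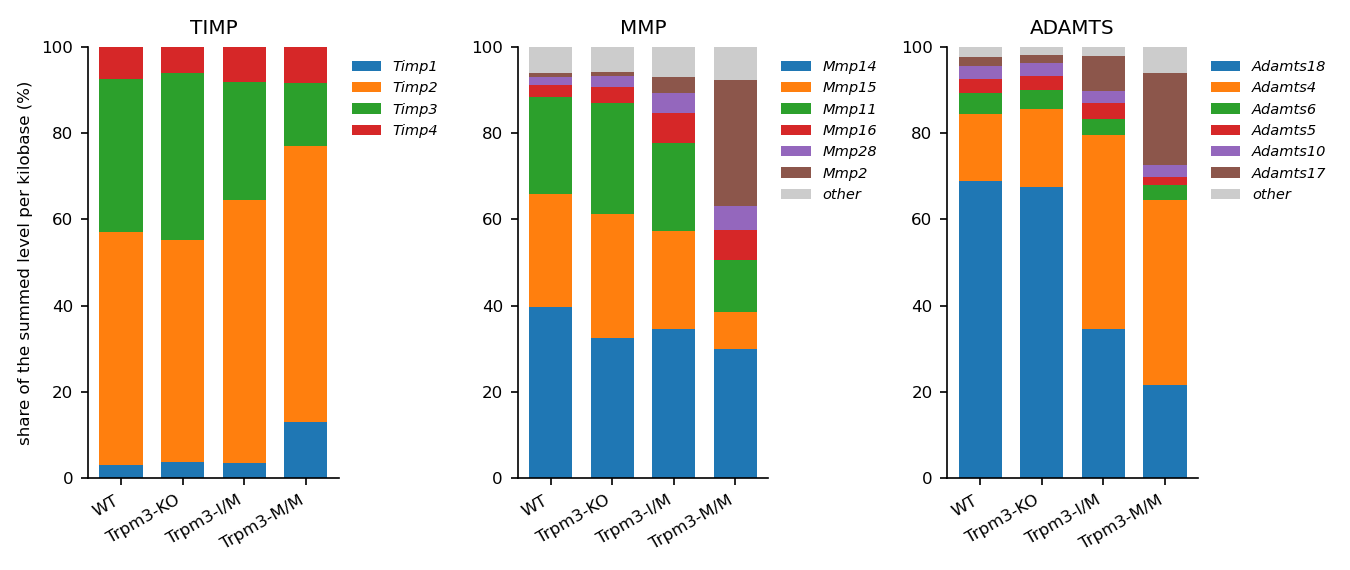
Share of each gene in the summed level per kilobase of its class (stacked bars, percent, from means of 3 libraries per genotype). *Adamts18* went from 68.9% of the ADAMTS sum in WT to 34.6% in I/M and 21.5% in M/M lenses, and *Mmp2* reached 29.1% of the MMP sum in M/M lenses.

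The ratio of inhibitor to MMP transcripts did not follow the same order as the sums. It was 7.13 to 8.40 in WT, 8.42 to 9.25 in KO, 9.81 to 10.4 in I/M and 6.82 to 7.44 in M/M libraries, so that I/M and KO were above WT and M/M overlapped WT. Counted against MMP and ADAMTS together, the ratio was 1.14 to 1.23 in WT, 1.145 to 1.147 in KO, 1.45 to 1.51 in I/M and 1.86 to 1.89 in M/M. From I/M to M/M the MMP sum was 2.14-fold and the TIMP sum 1.48-fold. These ratios are of transcripts and were given no test. *Timp2* made up most of their inhibitor side, at 54.1% of the TIMP sum in WT and 64.1% in M/M.

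**Figure D5:**
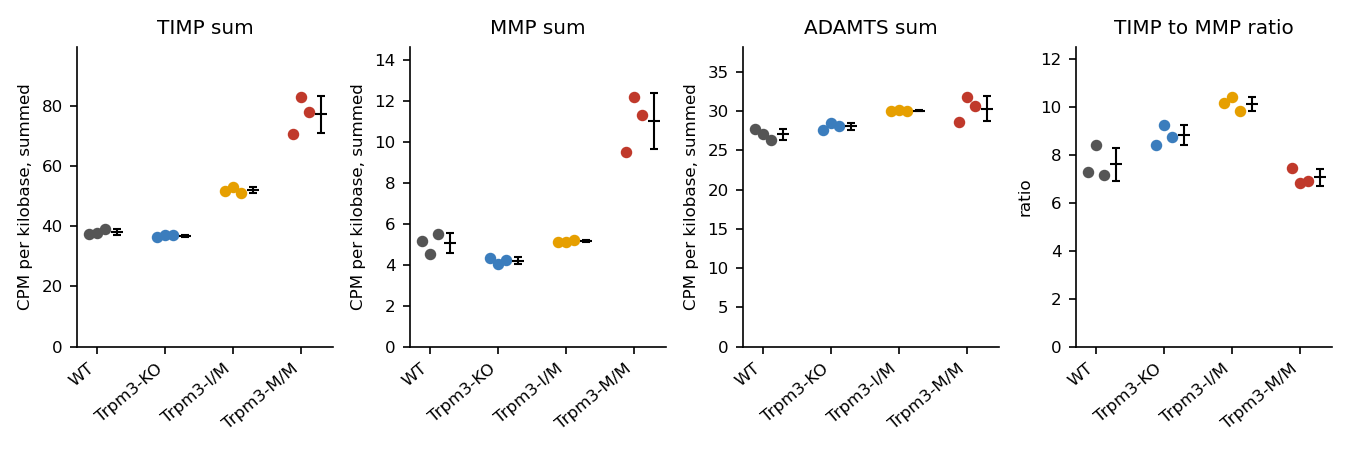
Summed CPM per kilobase of the TIMP, MMP and ADAMTS genes and the TIMP to MMP ratio. Coloured points are libraries, and the black mark beside them gives the mean with its SD (n = 3). The M/M TIMP sums (70.7 to 83.2) and MMP sums (9.50 to 12.2) lie above those of every other genotype, while the ratio is highest in I/M lenses.

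Several courses were seen across the 2 knock-in genotypes. *Adamts17*, *Mmp2*, *Mmp16* and *Mmp28* were upregulated in I/M and again from I/M to M/M. All of them passed their filter through knock-in libraries alone, so that this course was in part fixed by the filter too. *Timp2*, *Timp4* and *Adamts18* took the same graded course with steps below 2-fold. Of the 4 members called in I/M at 5 CPM, *Adamts4* was the one not called from I/M to M/M. *Timp1*, *Mmp9*, *Mmp17*, *Adamts1*, *Adamts2*, *Adamts7*, *Adamts8*, *Adamts9*, *Adamts14*, *Adamts15* and *Adamts16* were upregulated from I/M to M/M and were not called in I/M against WT. For 8 of these 11 (all but *Mmp17*, *Adamts1* and *Adamts15*) the filter was passed through M/M libraries alone, so that this course was in part fixed by the filter. *Adamts9* and *Adamts16* were called in I/M against WT under the alternatives given above. *Mmp19*, called in I/M but not from I/M to M/M, *Adamts12*, lowest in I/M, and *Adamts5*, called lower from I/M to M/M alone, took none of these courses. The endothelial, fibroblast, macrophage and ciliary epithelial marker sums given above were also highest in M/M lenses. The ciliary sum was mostly *Wls*, and the part of these cell markers in the members' rises was not tested. In KO lenses *Mmp14* was the single one of the 14 members to pass the FDR threshold, under the settings given above. The others below an unadjusted p of 0.05 there, all lower than WT, were *Timp4* (−0.33 ± 0.15, adjusted p = 0.271), *Adamts1* (−0.43 ± 0.15, adjusted p = 0.155), *Adamts15* (1 count in all KO and 7 in all WT libraries, adjusted p = 0.308) and *Mmp23* (4 counts in each KO library, −1.22 ± 0.44, adjusted p = 0.178). These adjusted p-values do not show that KO and WT lenses were alike.

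Other genes of extracellular proteolysis were counted from 5 lists in the same test at 5 CPM, in M/M against WT unless stated. Of all 8984 genes tested, 6.42% were higher and 2.53% lower in M/M, 2.58% were higher in I/M and 0.334% lower in KO. The lists were chosen with earlier results of these data known. *Adam15*, *Plat*, *Serpine2* and 7 of the substrates (*Col1a1*, *Col1a2*, *Fn1*, *Spp1*, *Tnc*, *Vcan* and *Vwf*) passed the filter through the M/M libraries alone, so their rises and the medians of their lists were in part built in. Of 7 other metzincin proteases tested 1 was upregulated, *Adam15* (1.23 ± 0.10, adjusted p = 2.91e-07), with a list median of 0.14 against −0.004 over all genes tested. Of 3 ADAMTS-like proteins, which lack the protease domain, *Adamtsl1* rose (2.56 ± 0.13, adjusted p = 1.65e-09) and *Thsd4* fell (−1.22 ± 0.10, adjusted p = 1.44e-07). *Adamtsl1* rose in I/M as well (1.73 ± 0.13, adjusted p = 4.22e-07). Of 5 activators 1 was called, *Plat*, the tissue plasminogen activator, which was read at 1.57 to 2.78 CPM in WT, 1.01 to 1.08 in KO and 8.58 to 14.1 in M/M lenses. *Plat* thus rose in M/M (2.51 ± 0.20, adjusted p = 2.05e-07) and fell in KO (−1.04 ± 0.26, adjusted p = 0.0398).

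Among inhibitors and clearance receptors, *Serpine2*, which encodes a serine protease inhibitor, rose in both knock-in genotypes. It was read at 0.0983 to 0.218 CPM in WT, 0.458 to 0.911 in I/M and 9.96 to 11 in M/M lenses (2.35 ± 0.33, adjusted p = 0.000128, and 6.12 ± 0.25, adjusted p = 2.31e-10). Of 16 substrates tested 9 were upregulated and 0 downregulated in M/M, with a list median of 1.68, and 7 of these 9 passed the filter through M/M libraries alone. In I/M 2 were upregulated, with a median of −0.09. The largest were *Tnc* (tenascin-C, 10.42 ± 0.47, adjusted p = 6.55e-10), *Spp1* (osteopontin, 3 counts in all WT and 5880 in all M/M libraries, ratio 1120 with a 95% exact interval of 383 to 5430) and *Col1a1* (8.71 ± 0.43, adjusted p = 1.48e-09). *Tnc* rose by 4.37 ± 0.82 in I/M (adjusted p = 0.00125). *Col1a1* and *Col1a2* stand in the fibroblast marker list too, and *Col1a1*, which encodes a procollagen that ADAMTS2 and ADAMTS14 can trim, was read at 35.0, 80.2 and 47.7 CPM in the M/M libraries against at most 0.138 in WT.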

How the data were processed

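Lens RNA was sequenced from 12 pooled samples. The authors demultiplexed reads with bcl2fastq, aligned and quantified them with DRAGEN against Ensembl release 101 (mm10), and deposited estimated counts per gene, of which 88.4% were whole numbers. They were rounded here. A second deposited table, with counts, CPM and the authors' own fold changes and p-values, was not used. Whether counting used strand was not stated in the sources used here, so exon overlap with opposite-strand genes is given beside the members it touches.

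Genes reaching 5 CPM in 3 or more libraries were tested with TMM scaling and edgeR's quasi-likelihood test on all 12 libraries (R 4.3.3, edgeR 4.0.16, limma 3.58.1), with genotype as the factor and calls at FDR of 0.05 and fold change of 2. Members below that filter were tested at CPM of at least 1, or at 10 counts in at least 3 libraries. The last filter was chosen after seeing the data, because the planned unfiltered fit gave no usable estimate of the spread. Members with WT within 3 counts per library were compared by summed counts with an exact 95% interval, which covers counting error only. Levels per kilobase used union exon lengths. Alternatives were DESeq2 1.42.0, other scalings, filters and designs, a replicate block and leaving out each library, and the fit was tested on simulated data. Replicate numbers were not taken to pair the samples. All called members were named, with the 3 largest of each pathway list. The members and lists were chosen with earlier results of these data known. One result of the inhibitor list is not reported here.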

Additional observations from a re-analysis of the deposited data

How the results depend on the processing

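No called difference changed sign under any alternative. The counts at 5 CPM were the same with DESeq2, with upper quartile scaling and with TMM without crystallin genes. Without the fold threshold, 5 members were lower in M/M against WT, 7 higher and 2 lower in I/M, 1 lower in KO, 7 higher and 4 lower in M/M against I/M, and 5 lower against KO. Shares of all genes past the FDR threshold alone were not taken, so nothing about the members is read from these counts. At 1 CPM, 13, 10 and 14 members were higher in M/M against WT, I/M and KO (against KO, 1272 of all 12638 genes). At 10 counts, an alternative chosen after seeing the data, these were 20, 15 and 21 (against KO, 2203 of all 16789 genes). With no filter they were 22, 17 and 23, without a share over all genes and from the fit that gave no usable estimate of the spread. At 10 counts and with no filter alike, 2 members were lower in M/M against WT, 2 against KO, and 1 in I/M against WT. With library size alone as scaling, 0 members were lower in M/M against I/M.

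Leaving out 1 library at a time gave 4 to 7 members higher in M/M against WT, 2 to 4 in I/M against WT, 1 to 4 in M/M against I/M and 5 to 8 against KO, with 0 to 1 lower against I/M. Counts of 4, 1 and 5 higher members against WT, I/M and KO came without an M/M library, when *Mmp2*, *Mmp16* and *Timp1* no longer had 3 libraries at 5 CPM and were not tested. The same filter gave 2 members higher in I/M when the 2 genotypes were fitted alone. In the fit at 10 counts the ranges were 15 to 20, 6 to 8, 11 to 16 and 17 to 21, and *Mmp2*, *Mmp16* and *Timp1* were called against WT in every one of them. *Mmp16* in M/M against I/M was 0.99 there without I/M replicate 1, and *Mmp14* passed 2-fold (1.03) without M/M replicate 1 at 5 CPM; the cause was not tested.

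With the replicate block the counts were the same, at 7 higher and 1 lower in M/M against WT, while *Mmp14* in KO and *Timp1* in I/M, both below 2-fold, lost the FDR threshold (adjusted p = 0.051 and 0.0637). Same-numbered libraries correlated between −0.264 and 0.149, over 0.1 in 2 of 18 pairs. Differently numbered libraries correlated between −0.251 and 0.297. With 3 libraries per genotype this check cannot exclude a shared litter or preparation, and it showed no pairing by number. Depth limits the members under 10 counts, for which 3 counts correspond to 0.0325 to 0.063 CPM.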
